A study of Mus musculus with 12 samples.

Results

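The 30 genes described here are those that Schwann cells, the glia of peripheral nerves, use to build and maintain myelin and to keep their identity, together with ligands and receptors through which skin, glia and sensory axons signal to each other. They were taken by gene symbol from a table of 56691 genes, and each symbol matched 1 row. They fall into 10 myelin genes, 11 genes of the wider Schwann cell lineage, 5 ligands and receptors of the GDNF family, and 4 genes of the neurotrophins, their receptors and axon guidance. Of these, 29 had enough reads to be tested, and Fabp7 did not. RNA was sequenced from ears of wild-type mice in 12 libraries, 4 in each of 3 groups. IsoL ears received isoliensinine, an alkaloid of lotus seed. Model ears received MC903, a vitamin D analogue used on mouse ears to set off a dermatitis that resembles atopic dermatitis. Blank ears received no treatment. The series concerns cathepsin B, IL-17A and neutrophils in that disease. Strain, sex, age, dose, days of sampling, a vehicle, and whether IsoL ears also received MC903 are not stated in any source used here. Which animal each library came from is not given either, so all p-values reflect only how far these libraries spread, which may be technical in part.

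Myelinating Schwann cells wrap large axons in a compacted membrane whose proteins include MBP, PMP22 and the periaxin scaffold, while non-myelinating Schwann cells hold bundles of thin pain and itch fibres and, in skin, reach up towards the epidermis. Neuregulin acting on ERBB2 and ERBB3 keeps the lineage alive and drives myelination under the factors SOX10, POU3F1 and EGR2. Neurotrophins signal through TRK receptors and the low-affinity receptor NGFR, and GDNF family ligands bind a GFRA co-receptor that engages the RET kinase. In skin these ligands are made largely by keratinocytes, fibroblasts and glia, and their receptors sit on sensory endings and on several non-neuronal cells.

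Libraries held 13884927 to 18771831 counted reads, and 18239 genes were tested. Levels are given as TMM-scaled FPKM, which is reads per kilobase of exon relative to the library's total, after scaling each library for its composition, in the order of replicates 1 to 4. Fold changes are edgeR estimates on the log2 scale, ± SE, with p-values adjusted over all tested genes, and a gene is said to have risen or fallen where its adjusted p was under 0.05. The spread between libraries, as the common biological coefficient of variation over all genes, was 9.41% in IsoL, 4.78% in Model and 3.63% in Blank ears. The fit shared its estimate of spread for each gene between all groups, so SEs and p-values do not follow each group's own spread. The Schwann cell markers Sox10, Mbp, Erbb3, Cdh19, Foxd3 and Scn7a were detected in all groups and none was at 0. Of 14 markers of sensory neurons or their axons, 9 had too few reads to be tested. In RNA from whole ear, fewer cells of a type, less RNA per cell and more RNA from other cells cannot be told apart.

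The genes covered a wide range of levels. Pmp22, a tetraspan protein of compact myelin that many non-neural cells also make, averaged 78.9 ± 2.80 in IsoL, 80.5 ± 2.49 in Model and 101 ± 3.44 FPKM in Blank ears (SD, n = 4 each). S100b, a calcium-binding protein of Schwann cells that is also abundant in cartilage, fat and some immune cells, averaged 51.6 ± 6.42 in IsoL, 46.0 ± 1.95 in Model and 91.0 ± 4.24 FPKM in Blank ears. These were the 2 most abundant of the 30 genes in every group. At the low end, Artn, Bdnf, Dhh, Gdnf, Gfra3, Mag and Fabp7 averaged under 1 FPKM in Model and in Blank ears, and 24 of the 30 genes reached an FPKM of 1 in at least 4 libraries. The order was not the same in every group. Gfra1 stood in place 5 in IsoL, place 3 in Model and place 17 in Blank ears. Artn stood in place 22 in IsoL, place 26 in Model and place 30 in Blank ears.

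**Figure D1:**
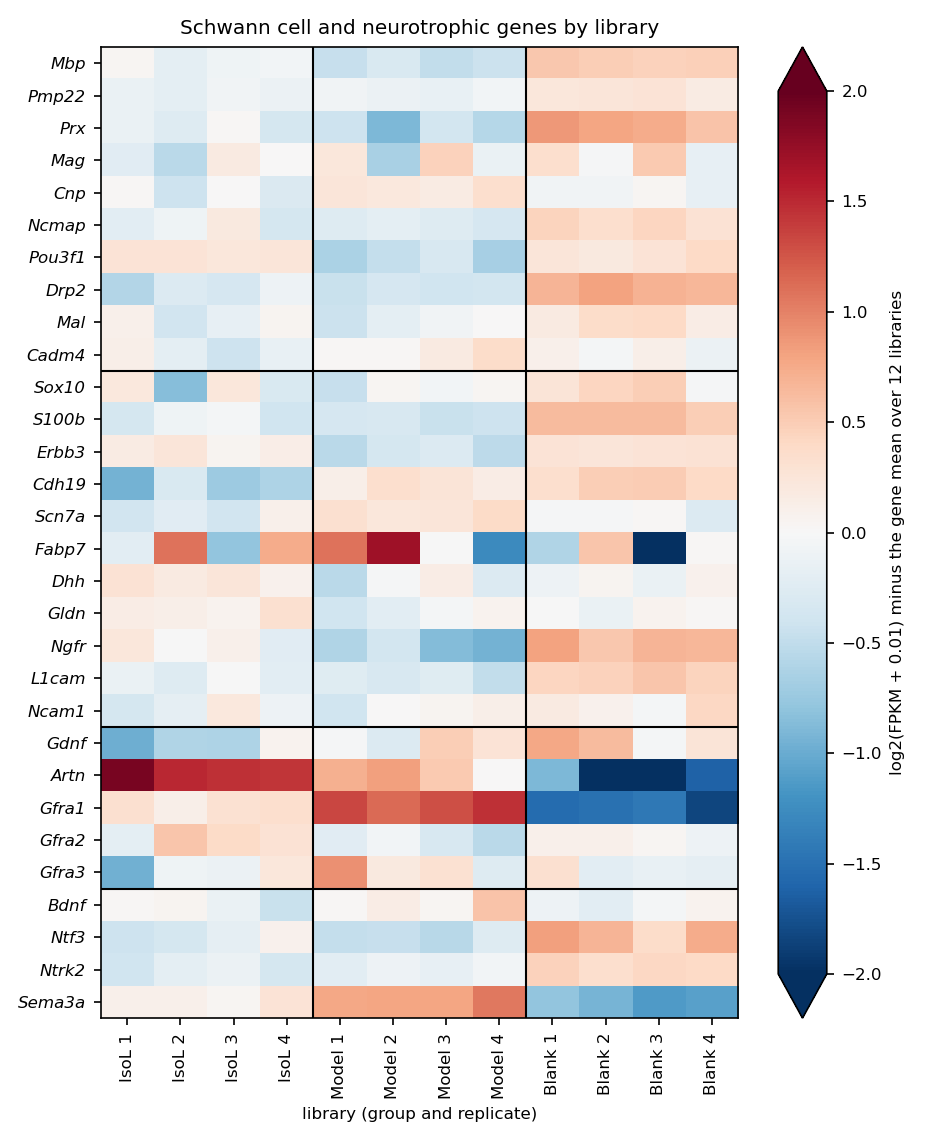
Level of each of the 30 genes (rows, by role) in each of the 12 libraries (columns: IsoL, Model, Blank), as log2 of the TMM-scaled FPKM minus the gene's mean over the 12 libraries, with 0.01 FPKM added before taking the log. Artn, Gfra1 and Sema3a were lowest in the 4 Blank libraries, and Prx, Drp2, Mbp, S100b, Ntf3 and Ntrk2 were highest there.

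In Model against Blank ears, the myelin genes Prx, Drp2 and Mbp and the receptors Ngfr, Erbb3 and Ntrk2 fell, while the GDNF co-receptor Gfra1, the ligand Artn and the axon repellent Sema3a rose by more than 3-fold. Of the 29 genes tested, 5 rose and 13 fell, which is 62.1% against 67.4% of all genes tested. The share that rose was 17.2% against 34.1% of all genes, and the share that fell was 44.8% against 33.3%. Their median log2 fold change was -0.32, against -0.01 for all genes. The libraries of the 2 groups did not overlap for 18 of the 29, and for 63.9% of all genes tested. A log2 fold change of 1 or more was reached upwards by 3 of the genes and downwards by 4, against 15.0% and 8.2% of all genes. With no scaling factors, or with upper-quartile or quantile scaling, the median of all genes moved to -0.16, -0.14 and -0.19, and 4 of the 29 rose and 18 fell under each; over all genes 38.9%, 40.5% and 37.3% of calls were then rises, against 50.6% with TMM scaling.

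In IsoL against Model ears, 9 of the 29 genes rose and 6 fell, 51.7% against 45.3% of all genes tested, of which 22.8% rose and 22.5% fell. The rises were spread over myelin genes (Mbp, Prx, Pou3f1), lineage genes (Ngfr, Erbb3, Gldn, L1cam) and the GDNF family (Gfra2, Artn). The falls were Cdh19, Scn7a, Cnp, Cadm4, Gfra1 and Sema3a. Their median was 0.08, against 0.01 for all genes. The libraries did not overlap for 12 of the 29, against 39.6% of all genes, and 1 gene rose and 1 fell by a log2 fold change of 1 or more, against 2.74% and 6.39% of all genes. With no scaling factors, 8 rose and 8 fell, and rises made up 38.2% of the calls over all genes, against 50.2% with TMM scaling.

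In IsoL against Blank ears, 3 of the 29 rose and 13 fell, 55.2% against 67.6% of all genes tested, of which 35.5% rose and 32.1% fell. The 3 that rose were Gfra1, Artn and Sema3a. Their median was -0.32, against 0.01 for all genes. The libraries did not overlap for 18 of the 29, against 60.2% of all genes, and 3 rose and 2 fell by a log2 fold change of 1 or more, against 12.4% and 7.15% of all genes. With no scaling factors 3 rose and 20 fell, and rises made up 34.9% of the calls over all genes, against 52.5% with TMM scaling and 42.2% with quantile scaling, where 3 rose and 19 fell. Each pair of these comparisons shares 4 libraries, so their values are given side by side and are not independent of each other. Counts of rises and falls in the smaller lists below are to be read beside these shares of all genes.

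**Figure D2:**
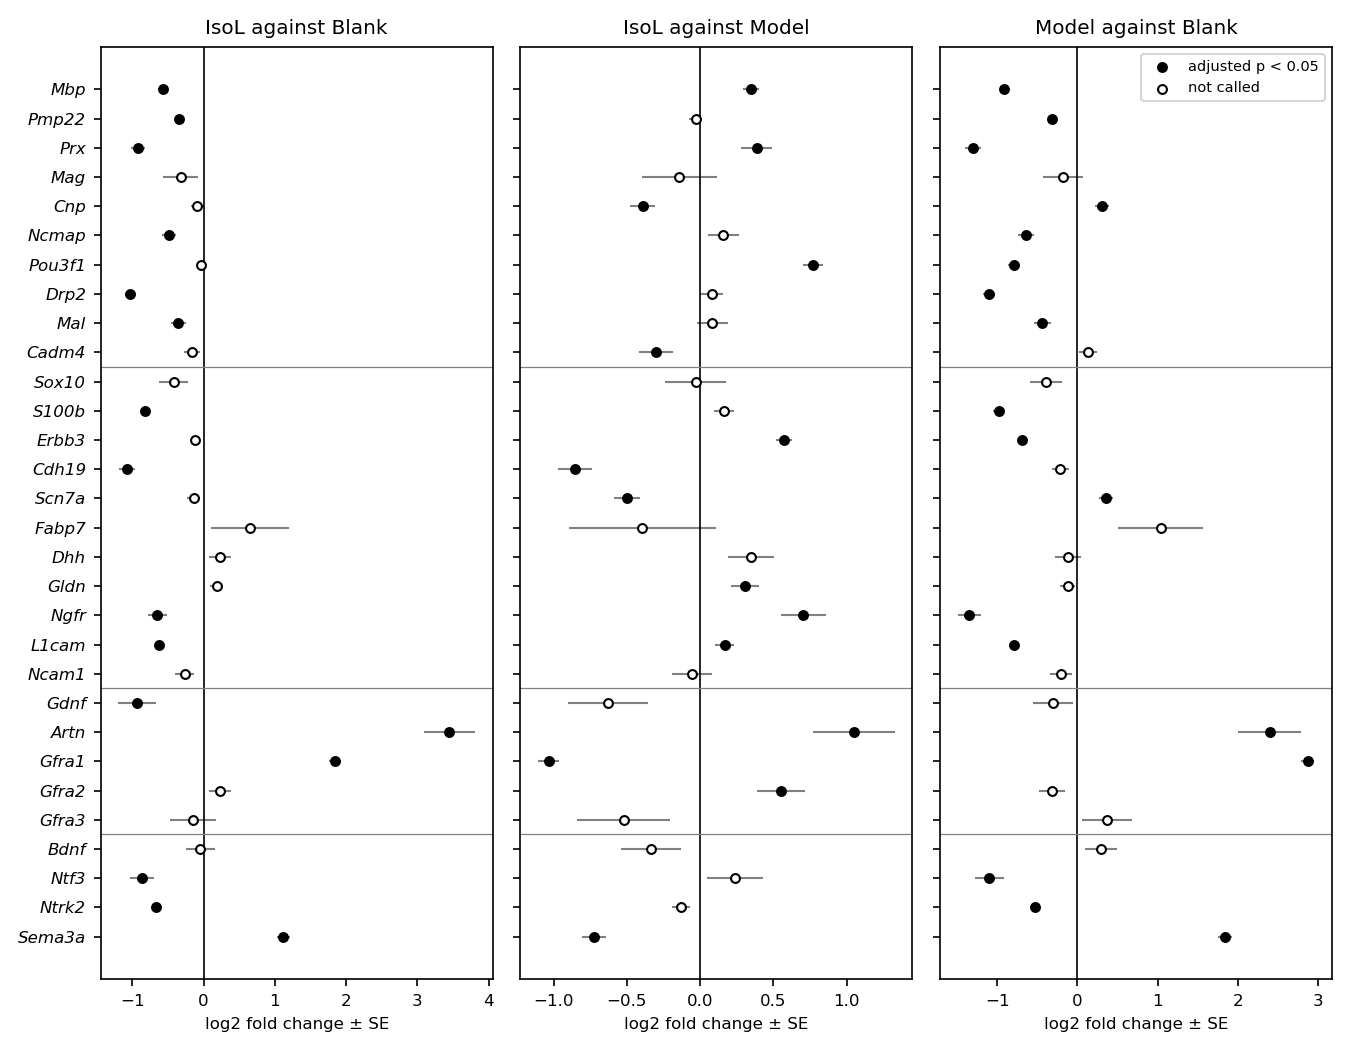
Log2 fold change of each of the 30 genes (Fabp7 from the fit with no filter on low counts) in IsoL against Blank, IsoL against Model and Model against Blank ears, with bars for the SE; filled points passed an adjusted p of 0.05. Gfra1, Artn and Sema3a lie to the right of 0 in both comparisons against Blank ears, in each of which 13 genes were called lower.

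Among the myelin genes, 7 of 10 fell and 1 rose in Model against Blank ears, 3 rose and 2 fell in IsoL against Model ears, and 6 fell and none rose in IsoL against Blank ears. The shares rising and falling were 10% and 70% in Model against Blank ears, against 34.1% and 33.3% of all genes tested. They were 30% and 20% in IsoL against Model ears, against 22.8% and 22.5%. In IsoL against Blank ears they were 0% and 60%, against 35.5% and 32.1%. In that last comparison no myelin or lineage gene rose in edgeR at an unadjusted p under 0.05 or in DESeq2 at an adjusted p under 0.05. Prx encodes periaxin, a scaffold that links the myelin sheath to the Schwann cell's outer membrane, and lies on chromosome 7, 27196813 to 27219639, plus strand, in the deposited coordinates, whose genome build no source used here names. Prx stood at 3.44, 3.15, 3.82 and 2.94 FPKM in IsoL, 2.82, 2.0, 2.92 and 2.52 in Model, and 6.82, 6.47, 6.32 and 5.57 in Blank ears. All 4 Blank libraries lay above the other 8, and the IsoL libraries lay above the Model ones by a small margin. The change was -1.30 ± 0.10 in Model against Blank ears (adjusted p = 5.3e-11), 0.38 ± 0.11 in IsoL against Model ears (adjusted p = 0.0049, but 0.056 and 0.052 with limma on log2 FPKM) and -0.92 ± 0.10 in IsoL against Blank ears (adjusted p = 1.4e-08).

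Drp2, dystrophin-related protein 2, binds periaxin at the patches where the sheath is held to that membrane. It had 2.87, 3.57, 3.42 and 4.0 FPKM in IsoL, 3.15, 3.39, 3.26 and 3.32 in Model, and 6.93, 7.54, 6.97 and 6.79 in Blank ears. IsoL and Model libraries overlapped, and both lay below every Blank library. Drp2 fell by 1.10 on the log2 scale in Model against Blank ears (SE 0.08, adjusted p = 4.3e-12) and by 1.03 in IsoL against Blank ears (SE 0.07, adjusted p = 1.6e-11). Its change in IsoL against Model ears was 0.08 (95% interval -0.08 to 0.23, adjusted p = 0.45).

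Mbp, the protein that compacts the inner faces of the myelin membrane, averaged 9.05 ± 0.600 in IsoL, 7.12 ± 0.415 in Model and 13.4 ± 0.342 FPKM in Blank ears (SD, n = 4 each), with no overlap between any 2 groups. It changed by -0.91 ± 0.06 in Model against Blank (adjusted p = 4.1e-13), 0.35 ± 0.06 in IsoL against Model (adjusted p = 1.7e-05) and -0.57 ± 0.05 in IsoL against Blank ears (adjusted p = 2.1e-09). IsoL ears lay between the other groups for Mbp, as for Prx.

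Pou3f1, the POU factor that starts myelination and that epidermal keratinocytes also make, took another order. It averaged 15.1 ± 0.261 in IsoL, 8.84 ± 0.985 in Model and 15.4 ± 0.993 FPKM in Blank ears (SD, n = 4 each). It fell in Model against Blank ears (-0.80 ± 0.07, adjusted p = 2.8e-10) and rose in IsoL against Model ears (0.77 ± 0.07, adjusted p = 1.5e-09). In IsoL against Blank ears the change was -0.03, with a 95% interval of -0.16 to 0.10 (adjusted p = 0.69). It was called lower there with no scaling factors (-0.25, adjusted p = 0.0015) and with limma on log2 FPKM (-0.23 and -0.24).

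Of the remaining myelin genes, Pmp22 changed by -0.32 ± 0.05 in Model against Blank ears (adjusted p = 1.2e-06) and by -0.35 ± 0.05 in IsoL against Blank ears (adjusted p = 3.4e-07). Ncmap, a small membrane protein of non-compact myelin, changed by -0.64 ± 0.10 in Model against Blank ears (adjusted p = 5.5e-06) and by -0.48 ± 0.10 in IsoL against Blank ears (adjusted p = 0.00015). Mal, a raft protein that sorts myelin components and is also found in epithelia, changed by -0.44 ± 0.11 in Model against Blank ears (adjusted p = 0.00084) and by -0.35 ± 0.10 in IsoL against Blank ears (adjusted p = 0.0044). None of these 3 was called in IsoL against Model ears.

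Cnp, a phosphodiesterase of myelin-forming glia that other cells also make, went the other way, at 5.98 ± 0.898 in IsoL, 7.85 ± 0.417 in Model and 6.35 ± 0.365 FPKM in Blank ears. It rose by 0.31 ± 0.09 in Model against Blank ears (adjusted p = 0.0035) and fell by 0.39 in IsoL against Model ears (SE 0.09, adjusted p = 0.00069). The rise was not called with no scaling factors, upper-quartile or quantile scaling, or limma on log2 FPKM (0.14 to 0.18). Dnajc7, which was given 28861 reads over all libraries, overlaps Cnp on the opposite strand. No strand setting is stated, so this overlap may affect the count of Cnp, in a direction that was not tested. Cadm4, an adhesion molecule that joins glia to axons, fell in IsoL against Model ears (-0.30 ± 0.12, adjusted p = 0.039) but was not called in 5 of the 12 fits that left out 1 library, nor with upper-quartile or quantile scaling (-0.27 and -0.24). In IsoL against Blank ears, no scaling factors, quantile scaling and limma on log2 FPKM called Cnp (-0.31 to -0.20) and Cadm4 (-0.38 to -0.27) lower, as upper-quartile scaling did Cadm4 (-0.26). Mag, a sialic acid-binding protein next to the axon, stood at 0.463 ± 0.101 in IsoL, 0.515 ± 0.163 in Model and 0.578 ± 0.129 FPKM in Blank ears and was not called in any comparison, on 125 to 167 reads per group.

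**Figure D3:**
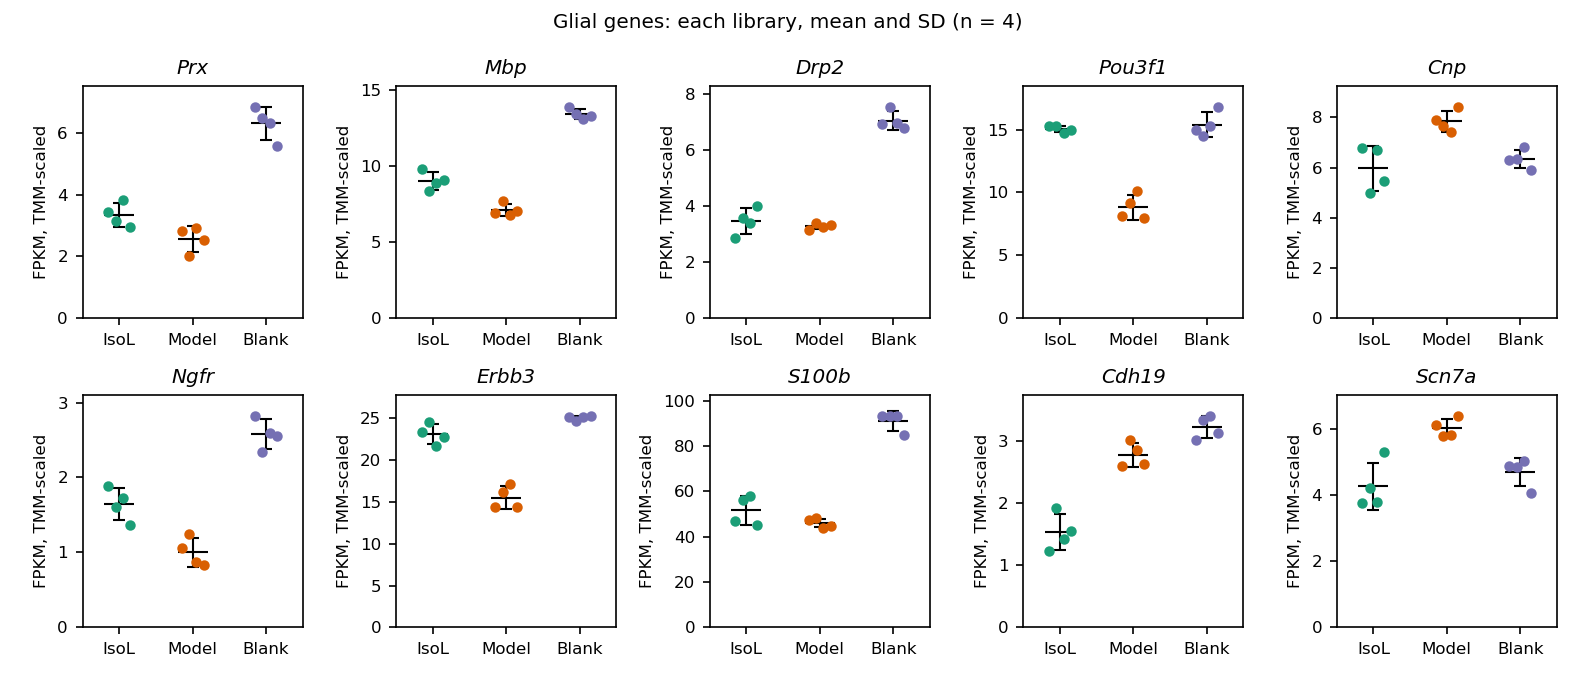
TMM-scaled FPKM of glial genes in each library of IsoL, Model and Blank ears, with points for libraries and a bar for the mean with its SD (n = 4 each). Prx, Drp2 and Mbp were highest in all 4 Blank libraries, Pou3f1 and Erbb3 were lowest in all 4 Model libraries, and Cdh19 was lowest in all 4 IsoL libraries.

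The other genes of myelin, 15 in a separate list, gave 8 falls and 2 rises among the 12 tested in Model against Blank ears, with a median of -0.79. Pllp, a tetraspan protein of the sheath, had the largest fall in Model against Blank ears (-1.45 ± 0.25, adjusted p = 1.6e-05) and in IsoL against Blank ears (-1.29 ± 0.24, adjusted p = 5.1e-05). The rises were Nfasc, a node of Ranvier adhesion molecule (2.09 ± 0.10, adjusted p = 8.4e-15), and Gjb1, a gap junction channel that epithelia also use (1.19 ± 0.34, adjusted p = 0.0039).

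In IsoL against Model ears 2 of these 12 rose and 2 fell (median 0.12), and in IsoL against Blank ears 2 rose and 9 fell (median -0.83). Egr2, the factor that drives myelin gene expression and is also induced in activated immune cells, changed by -0.57 ± 0.07 in IsoL against Model ears (adjusted p = 4.1e-07), -0.70 ± 0.07 in IsoL against Blank ears (adjusted p = 6.4e-09) and -0.13 ± 0.07 in Model against Blank ears (adjusted p = 0.11). Nfasc fell by 0.75 in IsoL against Model ears (SE 0.09, adjusted p = 2.9e-07), and Gjb1 rose by 1.78 in IsoL against Blank ears (SE 0.32, adjusted p = 4.1e-05).

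Of the 11 genes of the wider Schwann cell lineage, 10 were tested. In Model against Blank ears 1 rose and 4 fell, in IsoL against Model ears 4 rose and 2 fell, and in IsoL against Blank ears none rose and 4 fell. The shares rising and falling were 10% and 40% in Model against Blank ears, against 34.1% and 33.3% of all genes tested. They were 40% and 20% in IsoL against Model ears, against 22.8% and 22.5%. In IsoL against Blank ears they were 0% and 40%, against 35.5% and 32.1%. Ngfr, the low-affinity neurotrophin receptor of immature and non-myelinating Schwann cells, also marks some hair follicle and basal epidermal cells. It lies on chromosome 11, 95459644 to 95478561, minus strand, and had 1.88, 1.60, 1.73 and 1.37 FPKM in IsoL, 1.06, 1.25, 0.878 and 0.828 in Model, and 2.82, 2.34, 2.60 and 2.56 in Blank ears. The 3 groups did not overlap, with Model ears lowest and Blank ears highest. Ngfr changed by -1.35 ± 0.14 in Model against Blank (adjusted p = 1.4e-08), 0.70 ± 0.15 in IsoL against Model (adjusted p = 0.00049) and -0.65 ± 0.13 in IsoL against Blank ears (adjusted p = 0.00015).

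Cdh19, a cadherin of Schwann cell precursors and non-myelinating Schwann cells, followed a different order from Mbp and Prx. On chromosome 1, 110816056 to 110905314, minus strand, it stood at 1.23, 1.93, 1.43 and 1.56 FPKM in IsoL, 2.60, 3.02, 2.86 and 2.64 in Model, and 3.02, 3.35, 3.41 and 3.14 in Blank ears. All 4 IsoL libraries lay below the other 8, and Model and Blank ears overlapped. Cdh19 changed by -0.86 ± 0.12 in IsoL against Model (adjusted p = 1.4e-06), -1.07 ± 0.11 in IsoL against Blank (adjusted p = 1.3e-08) and -0.21 ± 0.11 in Model against Blank ears (adjusted p = 0.078). The last was called lower in 6 alternatives, the fit of only these 2 groups (-0.21, adjusted p = 0.036), no scaling factors, upper-quartile or quantile scaling, and limma on log2 FPKM (-0.36 to -0.27). Scn7a, a sodium channel of non-myelinating Schwann cells and some other cells, averaged 4.26 ± 0.713 in IsoL, 6.03 ± 0.286 in Model and 4.70 ± 0.429 FPKM in Blank ears. It rose in Model against Blank ears (0.36 ± 0.09, adjusted p = 0.0010) and fell in IsoL against Model ears (-0.50 ± 0.09, adjusted p = 6.1e-05), and its change in IsoL against Blank ears was -0.14 ± 0.09 (adjusted p = 0.17). The rise was not called with limma on log2 FPKM (0.18 and 0.21). The change in IsoL against Blank ears was called lower with no scaling factors, upper-quartile or quantile scaling, and limma on log2 FPKM (-0.36 to -0.23).

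Erbb3, the neuregulin receptor of the lineage and also a receptor of epidermal cells, averaged 23.1 ± 1.20 in IsoL, 15.5 ± 1.40 in Model and 25 ± 0.287 FPKM in Blank ears. It fell in Model against Blank ears (-0.69 ± 0.06, adjusted p = 1.4e-10) and rose in IsoL against Model ears (0.57 ± 0.06, adjusted p = 9.1e-09). In IsoL against Blank ears it changed by -0.12 (95% interval -0.22 to -0.01, adjusted p = 0.067). That change was called with no scaling factors, upper-quartile or quantile scaling, limma on log2 FPKM, the FPKM filter and the fit of only these 2 groups (-0.33 to -0.13). S100b fell by 0.98 in Model against Blank ears (SE 0.07, adjusted p = 4.6e-12) and by 0.82 in IsoL against Blank ears (SE 0.07, adjusted p = 1.4e-10). Its change of 0.16 in IsoL against Model ears was called with no filter on low counts and with upper-quartile scaling (0.16 and 0.20). L1cam, an adhesion molecule of axons and non-myelinating Schwann cells, changed by -0.79 ± 0.06 in Model against Blank (adjusted p = 8.8e-11) and by -0.62 ± 0.06 in IsoL against Blank ears (adjusted p = 5.3e-09). Its rise in IsoL against Model ears (0.17 ± 0.07, adjusted p = 0.038) was not called in 7 of the 12 fits that left out 1 library, nor with DESeq2, no scaling factors, limma or other filters (0.08 to 0.16).

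Sox10, the factor that defines the lineage and that melanocytes share, averaged 1.09 ± 0.352 in IsoL, 1.11 ± 0.169 in Model and 1.46 ± 0.227 FPKM in Blank ears on 207 to 317 reads per group. It was not called in any comparison, at -0.39 ± 0.20 in Model against Blank (adjusted p = 0.092), -0.03 ± 0.21 in IsoL against Model (adjusted p = 0.92) and -0.42 ± 0.20 in IsoL against Blank ears (adjusted p = 0.066). Without Blank replicate 4 it was called lower in Model (-0.48, adjusted p = 0.0494) and in IsoL (-0.52, adjusted p = 0.0343), and without IsoL replicate 1 or 3 it was called lower in IsoL against Blank ears (-0.55 in each). With no scaling factors, or with upper-quartile or quantile scaling, it was called lower in Model against Blank (-0.61 to -0.52) and in IsoL against Blank ears (-0.64 to -0.52), as it was in limma on log2(FPKM + 1) (-0.31 and -0.37). The fit of only 2 groups called it in Model against Blank ears (-0.38, adjusted p = 0.043). No filter on low counts (-0.43) and limma on log2(FPKM + 0.1) (-0.63) called it in IsoL against Blank ears. Gldn, gliomedin, which gathers sodium channels at nodes of Ranvier, rose in IsoL against Model ears (0.31 ± 0.09, adjusted p = 0.010), though not without Model replicate 1 (0.23, adjusted p = 0.0592) or with limma on log2 FPKM (0.18 and 0.23, adjusted p = 0.054 in each). It was called lower in Model against Blank ears with no scaling factors, upper-quartile or quantile scaling, and limma on log2 FPKM (-0.27 to -0.21). Dhh, the hedgehog ligand that Schwann cells send to the nerve sheath, and Ncam1, an adhesion molecule of non-myelinating Schwann cells, were not called in any comparison with TMM scaling. With no scaling factors, or with upper-quartile or quantile scaling, Ncam1 was called lower in Model against Blank (-0.36 to -0.33) and in IsoL against Blank ears (-0.48 to -0.36). Limma on log2 FPKM called it in IsoL against Blank ears (-0.24 and -0.44). Quantile scaling called Dhh higher in IsoL against Model ears (0.45, adjusted p = 0.022). Fabp7, a lipid carrier of Schwann cell precursors, had 30 reads in IsoL, 36 in Model and 20 in Blank ears; fitted with no filter on low counts, where 37.7%, 23.8% and 36.6% of 35185 genes were called in Model against Blank, IsoL against Model and IsoL against Blank ears, it was not called (adjusted p = 0.12, 0.64 and 0.40).

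Ratios taken within a library do not depend on how libraries are scaled. The summed level of the 10 myelin genes over that of Sox10 was 6.97 ± 0.463 in IsoL, 6.84 ± 0.233 in Model and 6.87 ± 0.196 in Blank ears on the log2 scale (SD, n = 4 each), and these ranges overlapped. Pmp22 is the largest part of that sum. The log2 ratio of Mbp to Cdh19, a pair chosen after their values were seen, was 2.99, 2.11, 2.64 and 2.55 in IsoL, 1.41, 1.35, 1.25 and 1.42 in Model, and 2.20, 2.01, 1.94 and 2.08 in Blank ears. All Model libraries lay below the other 8, and IsoL and Blank ears overlapped in that ratio. Prx over Cdh19 averaged 1.13 ± 0.378 in IsoL, -0.13 ± 0.319 in Model and 0.96 ± 0.153 in Blank ears. The ratio of Prx to Cdh19 was lower in each Model library than in the other 8. The ratios of Prx and Scn7a to Cdh19 were not planned beforehand either. Cdh19 itself fell in IsoL against Blank ears (-1.07), as did Mbp (-0.57) and Prx (-0.92). The overlap of IsoL and Blank ears in the ratios of Mbp and Prx is thus not a return of these genes to Blank levels. Scn7a over Cdh19 took another order, at 1.47 ± 0.276 in IsoL, 1.12 ± 0.165 in Model and 0.54 ± 0.130 in Blank ears. Each Blank library lay below the other 8 in that ratio, and IsoL and Model ears overlapped.

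**Figure D4:**
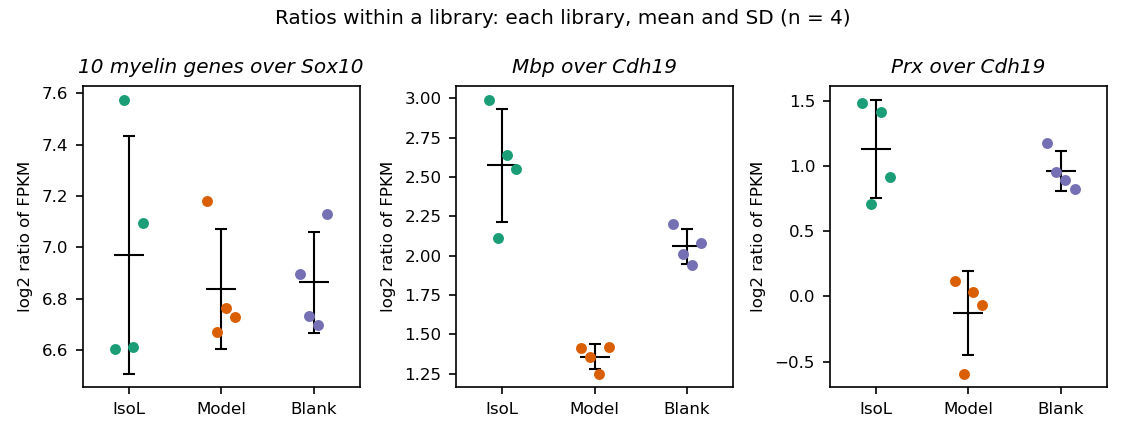
Log2 ratios of TMM-scaled FPKM within each library of IsoL, Model and Blank ears: the 10 myelin genes summed over Sox10, Mbp over Cdh19, and Prx over Cdh19, with points for libraries and a bar for the mean with its SD (n = 4 each). The first ratio overlaps between all groups, and for Mbp and Prx over Cdh19 the Model libraries lie lowest.

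A separate list of 16 other Schwann cell genes had 15 tested, of which 1 rose and 10 fell in Model against Blank ears (median -0.55), 4 rose and 2 fell in IsoL against Model ears (median 0.06), and 1 rose and 8 fell in IsoL against Blank ears (median -0.39). Itgb4, an integrin of the Schwann cell's outer face that is more abundant in basal keratinocytes, fell the most in Model against Blank ears (-1.16 ± 0.07, adjusted p = 1.4e-12). Gap43, a growth-associated protein of axons and immature glia, fell the most in IsoL against Blank ears (-1.09 ± 0.13, adjusted p = 1.7e-07). Zeb2, a repressor needed for myelination that macrophages also make, rose in Model against Blank ears (1.95 ± 0.07, adjusted p = 2.1e-17) and in IsoL against Blank ears (0.86 ± 0.07, adjusted p = 1.5e-10), and fell in IsoL against Model ears (-1.08 ± 0.07, adjusted p = 3.0e-12). Sostdc1, an inhibitor of BMP and Wnt signals that follicles also make, had the largest rise of the list in IsoL against Model ears (0.71 ± 0.08, adjusted p = 1.1e-07).

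Genes of the repair Schwann cell, the state that glia take on after nerve injury, gave 4 rises and 3 falls among 10 tested in Model against Blank ears, 2 rises and 3 falls in IsoL against Model ears, and 4 rises and 4 falls in IsoL against Blank ears, with medians of -0.01, -0.28 and -0.12. Artn had the largest rise of that list in all 3 comparisons, and Ngfr the largest fall in Model against Blank ears. Runx2, a factor of repair cells that bone and cartilage cells also use, fell the most in IsoL against Model ears (-0.97 ± 0.09, adjusted p = 1.4e-09). In the neuregulin and ErbB list of 10, with 9 tested, 2 rose and 5 fell in Model against Blank ears (median -0.27), 2 rose and 2 fell in IsoL against Model ears (median -0.09), and 1 rose and 5 fell in IsoL against Blank ears (median -0.22). Nrg1, the ligand of ERBB3, averaged 1.14 ± 0.0710 in IsoL, 1.76 ± 0.0596 in Model and 0.0869 ± 0.0161 FPKM in Blank ears, changes of 4.33 ± 0.11 in Model against Blank (adjusted p = 4.3e-20), -0.63 ± 0.08 in IsoL against Model (adjusted p = 3.9e-07) and 3.71 ± 0.12 in IsoL against Blank ears (adjusted p = 3.9e-18). Ligand and receptor thus moved in opposite directions in Model against Blank ears and in IsoL against Model ears. The largest rise of the list in IsoL against Model ears was Erbb3 itself, and the largest falls against Blank ears were those of Erbb4, another neuregulin receptor, at -1.14 ± 0.26 in Model (adjusted p = 0.00049) and -1.88 ± 0.28 in IsoL ears (adjusted p = 2.4e-06). Erbb4 was low throughout, at a mean of 0.079 in IsoL, 0.133 in Model and 0.291 FPKM in Blank ears.

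The promoters of 5 genes with large changes in Model against Blank ears, 3 that rose and 2 that fell, are taken from RefSeq's GRCm38.p6 table and printed to show what lies before genes that moved in opposite directions. Each runs 5′ to 3′ on the gene's own strand, from 250 bases before the start site to 50 bases after it. Capitals mark matches, on either strand, to the SOX cores ACAAAG and ACAATG, the EGR core GTGGGNG, and the nuclear receptor hexamers AGGTCA and GGTTCA; MC903 acts on the vitamin D receptor, whose sites are pairs of such hexamers spaced by 3 bases. Gfra1 is at chr19:58455349-58455648 (minus strand), Artn at chr4:117929714-117930013 (minus strand), Sema3a at chr5:13396534-13396833 (plus strand), Ngfr at chr11:95587649-95587948 (minus strand) and Prx at chr7:27499074-27499373 (plus strand). These positions do not line up with the deposited gene coordinates given elsewhere and are not to be compared with them. The Prx window, for example, starts after the deposited end of Prx (27219639) on the plus strand.
Gfra1: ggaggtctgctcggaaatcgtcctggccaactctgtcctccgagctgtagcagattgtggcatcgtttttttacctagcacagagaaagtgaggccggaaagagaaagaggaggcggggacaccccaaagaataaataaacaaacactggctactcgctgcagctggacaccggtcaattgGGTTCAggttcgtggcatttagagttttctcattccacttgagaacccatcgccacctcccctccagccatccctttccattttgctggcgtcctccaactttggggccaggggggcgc
Artn: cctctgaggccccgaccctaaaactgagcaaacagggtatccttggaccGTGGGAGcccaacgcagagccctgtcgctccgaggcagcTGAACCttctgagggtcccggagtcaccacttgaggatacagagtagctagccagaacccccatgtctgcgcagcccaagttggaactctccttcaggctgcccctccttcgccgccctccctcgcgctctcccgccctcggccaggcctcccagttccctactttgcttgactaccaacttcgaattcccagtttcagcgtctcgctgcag
Sema3a: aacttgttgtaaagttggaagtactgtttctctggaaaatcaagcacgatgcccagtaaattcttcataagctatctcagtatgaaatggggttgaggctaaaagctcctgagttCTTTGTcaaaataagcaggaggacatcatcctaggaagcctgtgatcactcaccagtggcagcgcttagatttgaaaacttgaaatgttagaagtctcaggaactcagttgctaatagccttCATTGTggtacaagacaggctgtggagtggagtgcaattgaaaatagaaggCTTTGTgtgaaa
Ngfr: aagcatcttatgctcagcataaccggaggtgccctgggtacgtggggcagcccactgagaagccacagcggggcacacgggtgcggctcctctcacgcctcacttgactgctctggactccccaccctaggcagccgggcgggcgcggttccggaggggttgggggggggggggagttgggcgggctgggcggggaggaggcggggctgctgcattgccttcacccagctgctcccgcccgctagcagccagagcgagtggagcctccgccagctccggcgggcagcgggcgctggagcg
Prx: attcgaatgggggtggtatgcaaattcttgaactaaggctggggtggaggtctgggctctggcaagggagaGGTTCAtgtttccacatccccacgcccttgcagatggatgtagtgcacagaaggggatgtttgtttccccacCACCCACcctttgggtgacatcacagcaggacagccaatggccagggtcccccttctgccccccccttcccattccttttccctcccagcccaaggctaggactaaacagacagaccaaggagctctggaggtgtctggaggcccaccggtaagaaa

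Gfra1 held 1 hexamer GGTTCA at -69, Artn held the EGR core at -201 and GGTTCA at -162, and Prx held the EGR core at -107 and GGTTCA at -179, counted from the start site. Sema3a held ACAAAG at -135 and 39 and ACAATG at -13, and Ngfr held none of these letters in this window. Of all 32851 promoters in the table, 18.7% held ACAAAG, 12.6% ACAATG, 31.6% GTGGGNG, 16.3% AGGTCA and 10.4% GGTTCA, so most of these matches are common. A pair of hexamers spaced by 3 was found in 0.0152% of all promoters and in none of the 36 promoters of the 21 genes that the table holds. GC content was 54.0% for Gfra1, 61.3% for Artn, 41.3% for Sema3a, 71.7% for Ngfr and 56.7% for Prx, against a median of 52.7% over all promoters.

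Among the GDNF family members, Gfra1 rose the most in reads. GFRA1 is the co-receptor that binds GDNF, and its gene lies on chromosome 19, 58224036 to 58444341, minus strand. Gfra1 had 11.7, 10.2, 11.5 and 11.8 FPKM in IsoL, 23.5, 20.4, 23.0 and 25.7 in Model, and 3.21, 3.31, 3.47 and 2.61 in Blank ears. The groups stood far apart, with IsoL between Model and Blank ears. Gfra1 was 7.34-fold higher in Model than in Blank ears (log2 2.88 ± 0.08, adjusted p = 1.4e-19) and 3.58-fold higher in IsoL than in Blank ears (log2 1.84 ± 0.08, adjusted p = 1.9e-15). In IsoL against Model ears it fell by 1.03 on the log2 scale (SE 0.07, adjusted p = 1.6e-11). All 3 calls held in every alternative run.

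Artn encodes artemin, the ligand of GFRA3 that supports and sensitizes pain and itch fibres, and lies on chromosome 4, 117783359 to 117786960, minus strand. It had 1.47, 1.11, 1.08 and 1.05 FPKM in IsoL, 0.639, 0.687, 0.559 and 0.386 in Model, and 0.203, 0.0233, 0.0725 and 0.119 in Blank ears. The groups did not overlap and, unlike for Gfra1, IsoL ears were highest. Artn was higher in Model than in Blank ears by 2.40 ± 0.40 on the log2 scale (95% interval 1.62 to 3.18, adjusted p = 1.2e-05), and higher in IsoL than in Blank ears by 3.45 ± 0.36 (adjusted p = 1.1e-08). In IsoL against Model ears it rose by 1.05 ± 0.28 (adjusted p = 0.0036). These folds rest on 190 reads in IsoL, 83 in Model and 18 in Blank ears.

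Gdnf, the ligand of GFRA1 and a product of Schwann cells and skin, was called only in IsoL against Blank ears. It had 0.253, 0.330, 0.327 and 0.533 FPKM in IsoL, 0.498, 0.418, 0.714 and 0.614 in Model, and 0.871, 0.792, 0.490 and 0.607 in Blank ears, and each 2 groups overlapped. Gdnf fell in IsoL against Blank ears (-0.93 ± 0.26, adjusted p = 0.0032). The other changes were -0.31 ± 0.25 in Model against Blank (adjusted p = 0.29) and -0.63 ± 0.27 in IsoL against Model ears (adjusted p = 0.066), the last of which was called without Model replicate 2 (-0.76, adjusted p = 0.0388) or IsoL replicate 4 (-0.89, adjusted p = 0.015), and with no scaling factors (-0.70, adjusted p = 0.042).

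The co-receptor Gfra2, which binds neurturin, had 1.10, 1.85, 1.64 and 1.55 FPKM in IsoL, 1.07, 1.22, 1.01 and 0.863 in Model, and 1.36, 1.36, 1.30 and 1.18 in Blank ears. IsoL replicate 1 lay within the Model range and the other 3 IsoL libraries above it. Gfra2 rose in IsoL against Model ears (0.55 ± 0.16, adjusted p = 0.0077) and was not called in Model against Blank (-0.32 ± 0.17, adjusted p = 0.095) or IsoL against Blank ears (0.24 ± 0.16, adjusted p = 0.18). In Model against Blank ears it was called lower with no scaling factors, upper-quartile or quantile scaling, and limma on log2 FPKM (-0.55 to -0.25). Gfra3, the receptor of artemin, had 0.261, 0.486, 0.475 and 0.605 FPKM in IsoL, 0.989, 0.591, 0.640 and 0.432 in Model, and 0.652, 0.448, 0.465 and 0.458 in Blank ears. On 61, 79 and 72 reads in these groups its libraries overlapped throughout and it was not called in any comparison (adjusted p = 0.30 in Model against Blank, 0.19 in IsoL against Model and 0.69 in IsoL against Blank ears).

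Of 7 other genes of the GDNF family, 5 were tested: 4 rose and 1 fell in Model against Blank ears (median 2.61), 1 rose and 2 fell in IsoL against Model ears (median -0.12), and 4 rose in IsoL against Blank ears (median 1.45). Ret, the kinase that all GFRA co-receptors engage, averaged 1.82 ± 0.0842 in IsoL, 1.89 ± 0.0843 in Model and 0.870 ± 0.134 FPKM in Blank ears. It rose by 1.12 ± 0.11 in Model against Blank ears (adjusted p = 2.1e-09) and 1.06 ± 0.11 in IsoL against Blank ears (adjusted p = 5.5e-09), with -0.06 ± 0.10 in IsoL against Model ears (adjusted p = 0.66). Gdf15, a stress-induced relative of the family, had the largest rise in Model against Blank ears (4.43 ± 0.48, adjusted p = 1.9e-08) and in IsoL against Blank ears (3.07 ± 0.54, adjusted p = 2.9e-05), and the largest fall in IsoL against Model ears (-1.36 ± 0.34, adjusted p = 0.0018). These changes of Gdf15 rest on 75 reads in IsoL, 175 in Model and 9 in Blank ears. Nrtn, neurturin, fell in Model against Blank ears (-0.85 ± 0.18, adjusted p = 0.00020) and rose in IsoL against Model ears (1.10 ± 0.18, adjusted p = 1.4e-05), the same directions as the values of its receptor Gfra2.

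**Figure D5:**
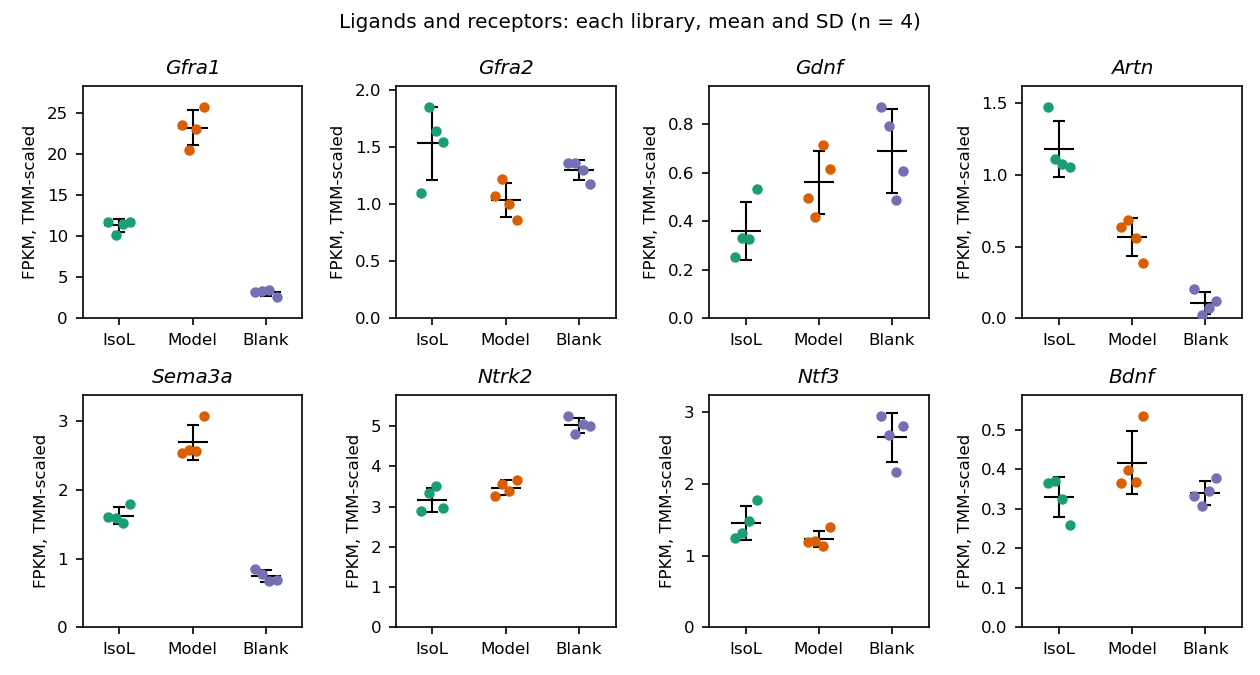
TMM-scaled FPKM of ligands, receptors and Sema3a in each library of IsoL, Model and Blank ears, with points for libraries and a bar for the mean with its SD (n = 4 each). Gfra1 and Sema3a were highest in the 4 Model libraries, Artn in the 4 IsoL libraries, and Ntf3 and Ntrk2 in the 4 Blank libraries.

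Sema3a, a secreted repellent of sensory axons that keratinocytes make, is on chromosome 5, 13175381 to 13652533, plus strand. It had 1.60, 1.59, 1.52 and 1.80 FPKM in IsoL, 2.55, 2.58, 2.58 and 3.08 in Model, and 0.857, 0.774, 0.674 and 0.693 in Blank ears. The groups did not overlap and had the order of Gfra1, with Model highest and IsoL between. Sema3a changed by 1.84 ± 0.09 in Model against Blank (adjusted p = 5.9e-15), -0.73 ± 0.08 in IsoL against Model (adjusted p = 8.7e-08) and 1.12 ± 0.09 in IsoL against Blank ears (adjusted p = 1.8e-10).

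Ntf3, neurotrophin 3, which supports touch and muscle afferents through TRKC, had 1.25, 1.31, 1.48 and 1.78 FPKM in IsoL, 1.19, 1.21, 1.14 and 1.39 in Model, and 2.94, 2.68, 2.17 and 2.80 in Blank ears. IsoL and Model overlapped, below all Blank libraries. It fell by 1.10 in Model against Blank ears (SE 0.18, adjusted p = 9.7e-06) and by 0.86 in IsoL against Blank ears (SE 0.17, adjusted p = 0.00012), and changed by 0.24 ± 0.19 in IsoL against Model ears (adjusted p = 0.34). Ntrk2, the TRKB receptor of BDNF and of neurotrophin 4, had 2.89, 3.34, 3.51 and 2.97 FPKM in IsoL, 3.27, 3.56, 3.38 and 3.67 in Model, and 5.25, 4.79, 5.05 and 5.0 in Blank ears. Here too the Blank libraries stood above the rest. Ntrk2 fell by 0.53 in Model against Blank ears (SE 0.06, adjusted p = 3.8e-08) and by 0.66 in IsoL against Blank ears (SE 0.06, adjusted p = 1.0e-09). In IsoL against Model ears it changed by -0.13 ± 0.06 (adjusted p = 0.091), which was called without IsoL replicate 3 (-0.18, adjusted p = 0.0144), with no scaling factors (-0.20) and with limma on log2 FPKM (-0.15 and -0.20).

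Bdnf, the ligand of TRKB, had 0.364, 0.371, 0.326 and 0.259 FPKM in IsoL, 0.365, 0.399, 0.368 and 0.534 in Model, and 0.332, 0.306, 0.346 and 0.377 in Blank ears. The groups overlapped, and it was not called in any comparison, with 95% intervals of -0.10 to 0.69 in Model against Blank, -0.74 to 0.06 in IsoL against Model and -0.45 to 0.36 in IsoL against Blank ears. Beside it, the 11 other neurotrophin genes gave 3 rises and 7 falls in Model against Blank ears (median -0.67), 3 rises and 1 fall in IsoL against Model ears (median 0.15), and 2 rises and 7 falls in IsoL against Blank ears (median -0.46).

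Artn, a GDNF family ligand for sensory fibres, thus rose in all 3 comparisons, and its receptor Gfra3 was called in none. Ret, the kinase of that family, rose against Blank ears in both Model and IsoL. The receptors Ngfr and Ntrk2, which belong to the neurotrophins, fell against Blank ears in both Model and IsoL. Ngfr rose in IsoL against Model ears (0.70). Among those 11 genes Sorcs3, a sortilin-family receptor that averaged 0.142 FPKM or less in every group, fell the most against Blank ears, at -1.82 ± 0.44 in Model (adjusted p = 0.00096) and -2.34 ± 0.46 in IsoL (adjusted p = 0.00011). Kidins220, a scaffold of TRK receptors, was the only fall of the 11 in IsoL against Model ears (-0.35 ± 0.05, adjusted p = 3.0e-06). In a list of 17 semaphorins and receptors, 9 rose and 6 fell in Model against Blank ears (median 0.43), 7 rose and 8 fell in IsoL against Model ears (median -0.15), and 10 rose and 6 fell in IsoL against Blank ears (median 0.32). Sema4d, made largely by immune cells, rose the most in Model against Blank ears (2.56 ± 0.06, adjusted p = 1.1e-20) and fell the most in IsoL against Model ears (-1.02 ± 0.06, adjusted p = 2.9e-13). Sema3e rose the most in IsoL against Model (0.84 ± 0.07, adjusted p = 1.3e-09) and in IsoL against Blank ears (2.68 ± 0.08, adjusted p = 1.9e-18), and Sema3d fell the most in Model against Blank (-2.50 ± 0.08, adjusted p = 1.3e-18) and in IsoL against Blank ears (-2.25 ± 0.08, adjusted p = 1.4e-17).

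Markers of other tissues of the ear moved in the same libraries, and their part in the results above was not tested. Beside the falls of S100b and the myelin genes, cartilage markers fell for 11 of 12 tested in Model against Blank and 12 of 12 in IsoL against Blank ears and rose for 8 in IsoL against Model ears, with a summed level of 165 to 233 in IsoL, 157 to 173 in Model and 328 to 366 FPKM in Blank ears. Skeletal muscle markers fell for 12 of 12 in Model against Blank and 11 of 12 in IsoL against Blank ears, and 6 rose and 1 fell in IsoL against Model ears, at 1062 to 1625 in IsoL, 1175 to 1365 in Model and 2116 to 2319 FPKM in Blank ears. Adipocyte markers, of which 10 were tested, gave 2 rises and 7 falls in Model against Blank, 5 rises and 2 falls in IsoL against Model, and 1 rise and 4 falls in IsoL against Blank ears. Their summed level was 136 to 158 in IsoL, 129 to 146 in Model and 144 to 162 FPKM in Blank ears, ranges that overlapped.

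Beside Pou3f1, Erbb3, Ngfr and Artn, the 8 keratinocyte markers gave 4 rises and 4 falls in Model against Blank, 8 rises in IsoL against Model, and 4 rises and 3 falls in IsoL against Blank ears, at a summed level of 10975 to 12788 in IsoL, 5158 to 6194 in Model and 7411 to 7930 FPKM in Blank ears. Sema3a, which keratinocytes also make, fell in IsoL against Model ears, where all 8 of these markers rose. It rose in Model against Blank ears, where their summed level was lower. Beside Sox10, 8 melanocyte markers gave 3 rises in Model against Blank, 6 rises and 1 fall in IsoL against Model, and 8 rises in IsoL against Blank ears, at 35.9 to 39.2 in IsoL, 21.0 to 25.2 in Model and 15.8 to 16.9 FPKM in Blank ears. Hair follicle markers gave 7 rises and 1 fall, 2 rises and 6 falls, and 1 rise and 6 falls in Model against Blank, IsoL against Model and IsoL against Blank ears, and summed to 545 to 773 in IsoL, 319 to 348 in Model and 49.98 to 80.7 FPKM in Blank ears. Most of that sum in IsoL and Model ears came from Tchh, trichohyalin of the inner root sheath, which rose in all 3 comparisons. It stood at 658 ± 85.6 in IsoL, 207 ± 10.9 in Model and 11.9 ± 3.82 FPKM in Blank ears. Melanocyte markers thus rose in IsoL against Blank ears, where Cdh19 fell and Sox10 was not called.

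Beside Gfra1, Sema3a and Zeb2, fibroblast markers gave 5 rises and 1 fall in Model against Blank, 1 rise and 6 falls in IsoL against Model, and 4 rises and 2 falls in IsoL against Blank ears, at 975 to 1098 in IsoL, 1180 to 1269 in Model and 878 to 940 FPKM in Blank ears. All 8 markers of macrophages and monocytes, all 8 of neutrophils and all 8 of endothelium rose in both comparisons against Blank ears and fell in IsoL against Model ears. Macrophage and monocyte markers summed to 678 to 804 in IsoL, 1363 to 1494 in Model and 161 to 173 FPKM in Blank ears, and endothelial ones to 74.1 to 80.6 in IsoL, 114 to 120 in Model and 30.03 to 32.6 FPKM in Blank ears. Neutrophil markers summed to 550 to 765 in IsoL, 4900 to 5353 in Model and 54.0 to 130 FPKM in Blank ears, where Ly6g and Ngp were at 0. Of the neuronal markers, 1 rose and 2 fell in Model against Blank, 2 rose in IsoL against Model, and 1 rose and 1 fell in IsoL against Blank ears. Most of their summed level, at 34.2 to 41.2 in IsoL, 14.1 to 16.7 in Model and 5.10 to 5.64 FPKM in Blank ears, came from Tubb3, a tubulin that activated non-neuronal cells also make, which rose by 4.93 in Model against Blank, 1.49 in IsoL against Model and 6.42 in IsoL against Blank ears.

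The deposited annotation links 9 of the 30 genes to the axon (Scn7a, Gfra1, Gldn, L1cam, Ncam1, Ntrk2, Ntf3, Bdnf and Sema3a), a term that 2.32% of tested genes carry, and 5 to the myelin sheath (Mbp, Prx, Mag, Cnp and Ncam1), carried by 0.998%. The 30 genes were chosen for such roles, so these shares follow from the choice and are not a result. Axon-linked genes include rises, such as Gfra1 and Sema3a, and falls, such as Ntf3 and Ntrk2, against Blank ears. Reads could be shared between neighbours for a few members. S100b overlaps Dip2a on the opposite strand, L1cam overlaps Arhgap4, and Dhh shares 10.3% of its 50-base words with Rhebl1 on the same strand, against 1.22% or less for the other members.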

How the data were processed

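Poly-A RNA of whole mouse ears was sequenced in 12 libraries, prepared with random primers and a 15-cycle PCR per the labels' protocols; no molecular identifiers are described, so counts are not independent molecules. HISAT2 2.1.0, HTSeq 0.9.1 and fastp 0.22.0 are named in the submitters' processing notes, with no strand setting or genome build. The deposited table pairs read counts with FPKM for every gene and library, beside an exonic length. The authors' FPKM equalled, in 100% of values and within 0.005, what the counts give per kilobase and library total.

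Counts went into edgeR 4.0.16 (R 4.3.3), whose quasi-likelihood F-test was run with TMM factors, genes kept by filterByExpr, 1 fit of the 3 groups, no covariate, two-sided p-values and Benjamini-Hochberg adjustment over all tested genes of a comparison. TMM-scaled FPKM were computed from counts, length and scaled library size. Alternatives were DESeq2 1.42.0, other scalings, other filters, limma 3.58.1 on log2(FPKM + 1) and on log2(FPKM + 0.1), a fit of only the 2 groups compared, a replicate block, and leaving out each library. The 30 genes and all lists were chosen with earlier results of these data known. Values in every library are given for genes called with an absolute log2 fold change of 1 or more and for the ligands and receptors; other lists give Ret, Egr2, Nrg1 and the called genes with the largest rise and fall, except where a list's largest change is a member described elsewhere; some genes that this rule takes are not reported here. Promoters are from RefSeq (GRCm38.p6), which held 21 of the 30 genes; those printed are the 5 largest absolute changes in Model against Blank ears among these, leaving out chromosome 18. No 2 libraries of a group agreed within sampling noise (chi-square per degree of freedom 2.03 to 13.9).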

Additional observations from a re-analysis of the deposited data

Results flagged for a closer look

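In 5 of 90 groups of 4 libraries, 1 library stood apart from the other 3 by more than the limit of Dixon's test at 95%, a rule that chance meets in about 1 group in 20. High values were those of Artn in IsoL replicate 1, at 1.47 FPKM against 1.05 to 1.11 in the others, Sema3a in Model replicate 4, at 3.08 against 2.55 to 2.58, and Gfra3 in Blank replicate 1, at 0.652 against 0.448 to 0.465. Low values were those of Gfra1 in IsoL replicate 2, at 10.2 FPKM against 11.5 to 11.8, and S100b in Blank replicate 4, at 84.6 against 93.0 to 93.1. Leaving out the library that stood apart changed no call of these 5 genes.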

How the results depend on the processing

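The calls of Gfra1, Artn, Sema3a and Ngfr held in every alternative that tested them. Limma on the authors' log2(FPKM + 1) or log2(FPKM + 0.1), unscaled and after a filter that left 24 of the genes, called 2 and 2 rises among them in Model against Blank and 5 and 5 in IsoL against Model ears (4 and 7 in edgeR with that filter), and 4033 and 4050 of all genes in IsoL against Blank ears, where no scaling factors gave 20 falls among the 29. The cause was not tested. Some uncalled changes close to 0 turned sign. In Model against Blank ears Cadm4 went to -0.012 with no scaling factors, -0.030 with quantile scaling, and -0.013 and -0.015 with limma on FPKM. In IsoL against Model ears upper-quartile scaling gave Pmp22 0.0028 and Sox10 0.00066, quantile scaling gave Sox10 0.017 and Mag 0.056, and limma on FPKM gave Drp2 -0.00084 and -0.0032. In IsoL against Blank ears Gldn was -0.035 with no scaling factors and -0.029 and -0.036 with limma on FPKM. Over the fits that left out 1 library, the values that crossed 0 spanned -0.35 to 0.013 for Mag in Model against Blank ears; -0.16 to 0.14 for Sox10, -0.33 to 0.034 for Mag, -0.17 to 0.018 for Ncam1 and -0.0056 to 0.15 for Drp2 in IsoL against Model ears; and -0.32 to 0.047 for Gfra3, -0.061 to 0.012 for Pou3f1 and -0.10 to 0.057 for Bdnf in IsoL against Blank ears. Those fits gave 5 to 6 rises and 13 to 14 falls among the genes in Model against Blank, 8 to 10 and 5 to 7 in IsoL against Model, and 3 to 4 and 13 to 15 in IsoL against Blank ears. Calls gained there and not given above were Fabp7 without Model replicate 4 (1.38, adjusted p = 0.0371) in Model against Blank ears, Dhh without Model replicate 3 (0.45, adjusted p = 0.0351) and S100b without IsoL replicate 1 (0.20, adjusted p = 0.0185) or 4 (0.22, adjusted p = 0.00762) in IsoL against Model ears, and, in IsoL against Blank ears, Ncam1 without Blank replicate 3 (-0.33, adjusted p = 0.0456) or IsoL replicate 3 (-0.37, adjusted p = 0.0182), Gfra2 without IsoL replicate 1 (0.37, adjusted p = 0.0316), Erbb3 without IsoL replicate 2 (-0.14, adjusted p = 0.0328) and Scn7a without IsoL replicate 4 (-0.26, adjusted p = 0.00411). Libraries of different groups with the same replicate number did not deviate together (correlations -0.058 to 0.0714). That cannot exclude a pairing with a small effect, and the labels state none. With the replicate number as a block, 5 rose and 13 fell in Model against Blank, 10 and 6 in IsoL against Model, and 3 and 13 in IsoL against Blank ears. Without the block these were 5 and 13, 9 and 6, and 3 and 13. Counts of 18 to 190 reads per group limit Artn, Gdnf, Gfra3, Mag, Bdnf and Fabp7.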
